A study of Drosophila melanogaster with 20 samples.

Results

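Glutathione S-transferases (GSTs) and UDP-glycosyltransferases (UGTs) are large families of conjugating enzymes in the fly, and their expression in the head was compared between white-eyed (w-) and red-eyed (w+) Drosophila melanogaster of both sexes. The genes were taken by symbol, as every gene in the count table whose name starts with Gst or Ugt followed by a capital letter or a digit. This gave 70 of 17609 genes, of which 35 were Gst genes and 35 were Ugt genes. A GST joins the tripeptide glutathione to reactive, electrophilic molecules, and a UGT transfers a sugar from a UDP-sugar donor, in insects mostly glucose, to small fat-soluble molecules. The products of both are easier to dissolve and to export from the cell. In fly heads these enzymes are known for clearing toxins, oxidized lipids and, in the antenna, odorants.

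The samples were pools of 10 whole heads from unmated flies aged 1 week, with 5 libraries in each of 4 groups. These were white-eyed and red-eyed males and white-eyed and red-eyed females. All groups shared the w1118 background, whose white gene carries a partial deletion. The intact white allele of the w+ flies came from the Harwich strain and was brought into w1118 by repeated backcrossing, so that these flies trace to a single donor allele and may still carry donor sequence near white on the X chromosome. All 4 groups were progeny of the same kind of cross, and the w+ females were heterozygous for white. Nothing in the labels says whether the 5 pools of a group came from separate cultures, so p-values measure the spread between these pools, part of which may be technical.

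The libraries held 34211100 to 48866963 counts assigned to genes. Male libraries were shallower in w- than in w+ flies (exact permutation test over 5 and 5 libraries, two-sided p = 0.0079), and all levels were scaled for it. The white gene had 8 to 15 counts in w- males and 374 to 509 counts in w+ males, and 4 to 15 counts in w- females and 481 to 688 counts in w+ females, so every library matched its label. The defining markers of a head were present in every group, with photoreceptor genes such as ninaE and trp summing to between 39990 and 53240 counts per 1000000 (CPM). Digestive protease genes, markers of the gut, summed to 42.5 CPM in w- female replicate 3 and to at most 0.457 CPM in the other 19 libraries. The yolk protein genes Yp1, Yp2 and Yp3, products of female fat body, summed to 42000 to 89240 CPM in w- females and 48240 to 154300 CPM in w+ females, against 38.9 to 59.8 CPM in w- males and 30.0 to 62.9 CPM in w+ males.

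Most of the 70 genes stood in tandem arrays, a mark of families that grew by gene duplication. Counting neighbours whose start sites lay within 10 kb of each other, 50 genes fell into 11 arrays (Drosophila release 6 assembly, coordinates from the Ensembl BDGP6.54 annotation). The largest held 11 GstD genes on chromosome 3R at 12364776 to 12385624. The next held GstE1 to GstE10 on 2R at 18396638 to 18409835, and a Ugt array of 9 genes lay on 3R at 11151026 to 11177910. None of the 70 shared exon bases with another gene on the same strand, and 12 overlapped a gene on the opposite strand. Since reads were counted by strand and only where they aligned uniquely, stretches that are identical between neighbours in an array lose reads, and levels of close paralogs may be too low.

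The Gst family was expressed far more broadly in heads than the Ugt family. Levels of different genes were compared per length, in transcripts per 1000000 (TPM) over all 20 libraries. A mean of at least 10 TPM was reached by 30 of 35 Gst genes and 15 of 35 Ugt genes, and the median gene stood at 37.7 TPM in the Gst family and 2.25 TPM in the Ugt family. At the low end, 5 Gst genes and 16 Ugt genes averaged under 1 TPM, and Ugt303B2 had 0 counts in all 20 libraries. In all, 8 of the 70 genes (1 Gst and 7 Ugt) had too few counts to be tested in the fit of all libraries, which left 62. Both families were dominated by few genes, since the 5 highest carried 57.7% of the summed Gst level and 66.4% of the summed Ugt level.

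The highest Gst gene was GstD1, known for breaking down DDT and as a gene switched on by oxidative stress, at 609 TPM. It was followed by GstE12 at 535 TPM, GstE9 at 294 TPM, GstE6 at 183 TPM and GstE4 at 146 TPM, all of the epsilon class, which together with the delta class is specific to insects and their relatives and is tied to insecticide breakdown. GstD1 and GstE12 overlapped in their ranges over the 20 libraries, at 434 to 773 TPM and 472 to 628 TPM. So did GstE6, at 107 to 239 TPM, and GstE4, at 102 to 200 TPM. GstE9, at 180 to 488 TPM, overlapped each of the others. Among Ugt genes, Ugt35B1, known for its expression in the antenna, led at 231 TPM. Ugt302C1 followed at 118 TPM, Ugt49C1 at 78.0 TPM, Ugt36E1, known from olfactory neurons, at 60.8 TPM, and Ugt301D1 at 55.7 TPM. Ugt37D1, at 54.4 TPM, and Ugt49B1, at 53.2 TPM, lay just below.

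**Figure D1:**
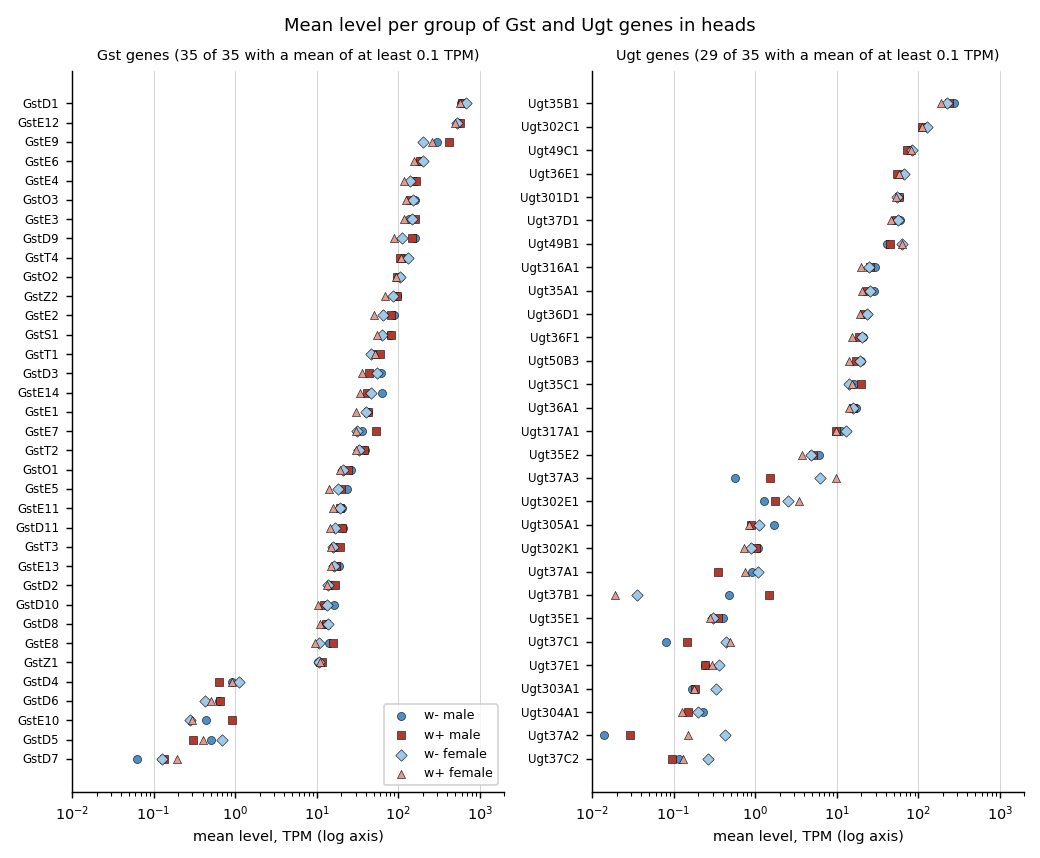
Mean level of each Gst gene (left) and Ugt gene (right) in TPM on a log axis, 1 point per group of 5 libraries, for genes with a mean of at least 0.1 TPM. Of 35 Gst genes, 30 lie at 10 TPM or more, against 15 of 35 Ugt genes, and the 4 groups of most genes lie close together except for low genes such as Ugt37A3 and Ugt37B1.

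Replicates of 1 group lay close together for most genes. Over the 30 Gst genes with at least 10 counts in all 20 libraries, the coefficient of variation within a group had a median of 8.03% in w- males and 10.7% in w+ males, and of 9.82% in w- females and 10.4% in w+ females. GstO2 was among the steadiest, at 1.72% in w+ females. Among the 20 Ugt genes with at least 10 counts in all 20 libraries, the least steady were Ugt305A1 in w+ males, at 47.2%, and Ugt37A3 in w+ females, at 47.3%. Libraries also differed as a whole: w+ male replicate 3 was the highest of its group for 26 of 56 genes tested in males, w+ male replicate 2 was the lowest for 29 of the 56, and w- female replicate 3, the library with gut markers, was the lowest of its group for 22 of 58 genes tested in females.

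In male heads, single GST genes were lower in w- flies and low UGT genes changed in both directions, while most genes of both families did not pass the test. Of 56 genes that passed the filter in males, 3 were higher and 8 were lower in w- than in w+ males, where 12.7% of all 11187 genes tested passed (edgeR quasi-likelihood test, adjusted p under 0.05). By direction, all genes gave 4.64% higher and 8.06% lower, against 3 and 8 of 56 here, and with library size alone as the scaling the split was 5 higher and 5 lower. At an unadjusted p under 0.05 there were 20 of the 56, where all genes gave 26.5%. The median log2 fold change over the 56 genes was -0.03, beside 0.00 over all genes tested, and 25 of the 56 were positive. In 9 of the 56 genes the 5 w- and 5 w+ males did not overlap (3 higher and 6 lower), against 13% of all genes (5.57% higher and 7.42% lower). Summed over the family, Gst genes stood at 1436 ± 52.4 CPM in w- males and 1582 ± 118 CPM in w+ males, and Ugt genes at 709 ± 27.6 CPM in w- males and 694 ± 35.3 CPM in w+ males (SD, n = 5 each).

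GstT1, a member of the theta class, which is conserved across animals, was lower in w- males. Its level was 19.8, 20.4, 19.8, 23.7 and 22.4 CPM in w- males (replicates 1 to 5) and 24.9, 25.6, 29.4, 26.8 and 29.5 CPM in w+ males. Every w- library lay below every w+ library, and the log2 fold change was -0.36 (SE 0.06, adjusted p = 0.0068, edgeR). It was the only gene of the 11 that passed in all of the 12 other settings tried, including each fit without 1 replicate number, with a highest adjusted p of 0.0319. Its array neighbour GstT2 was not past the threshold.

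GstE9, the third-highest Gst gene per length, was also lower in w- males. It had 92.2, 112, 93.3, 110 and 89.5 CPM in w- males, against 132, 126, 176, 147 and 161 CPM in w+ males. The groups did not overlap, and the log2 fold change was -0.58 (SE 0.12, adjusted p = 0.026), or 1.49-fold lower in w- males. GstE7, from the same array, had 10.8 to 12.6 CPM in w- males and 15.6 to 26.8 CPM in w+ males, where the highest value came from replicate 3 and the others reached 18.1 CPM (log2 fold change -0.66, SE 0.15, adjusted p = 0.0448). The other 8 genes of the GstE array did not pass in males. For GstE9 the call was lost without replicate 1, 3 or 5 (adjusted p up to 0.0767), and for GstE7 without replicate 1, 2, 4 or 5 (up to 0.16). GstE7 also lost it when all genes with at least 1 count were tested.

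GstE14 went the other way. This gene, also called noppera-bo, is needed for the synthesis of ecdysteroid hormones in the larva. It had 26.5, 29.1, 26.4, 25.7 and 26.9 CPM in w- males and 17.4, 15.4, 20.9, 22.0 and 18.8 CPM in w+ males. All w- libraries lay above all w+ libraries, with a log2 fold change of 0.51 (SE 0.09, adjusted p = 0.0135), and only the fit without replicate 5 lost the call (adjusted p = 0.0605).

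The remaining Gst genes that passed fell by small steps. GstT3, on the X chromosome, had 9.22 to 11.3 CPM in w- males and 10.0 to 12.7 CPM in w+ males (log2 fold change -0.26). GstZ1, whose class includes the maleylacetoacetate isomerases of tyrosine breakdown, had 3.63 to 4.40 CPM in w- males and 4.33 to 5.32 CPM in w+ males (log2 fold change -0.26). GstD2, a delta-class gene, had 4.08 to 5.29 CPM in w- males and 4.88 to 6.87 CPM in w+ males (log2 fold change -0.28). The groups overlapped for all 3 genes, and adjusted p lay between 0.0392 and 0.0438. GstT3 lost the call without replicate 1, 3 or 5 (adjusted p up to 0.138), GstD2 without replicate 2, 3 or 5 (up to 0.156), and GstZ1 without any 1 of the 5 numbers (up to 0.137). All 3 also lost it with DESeq2, with library size alone and with all 20 samples in 1 fit. GstD2 also lost it with no replicate block, and GstZ1 when all genes with at least 1 count were tested.

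**Figure D2:**
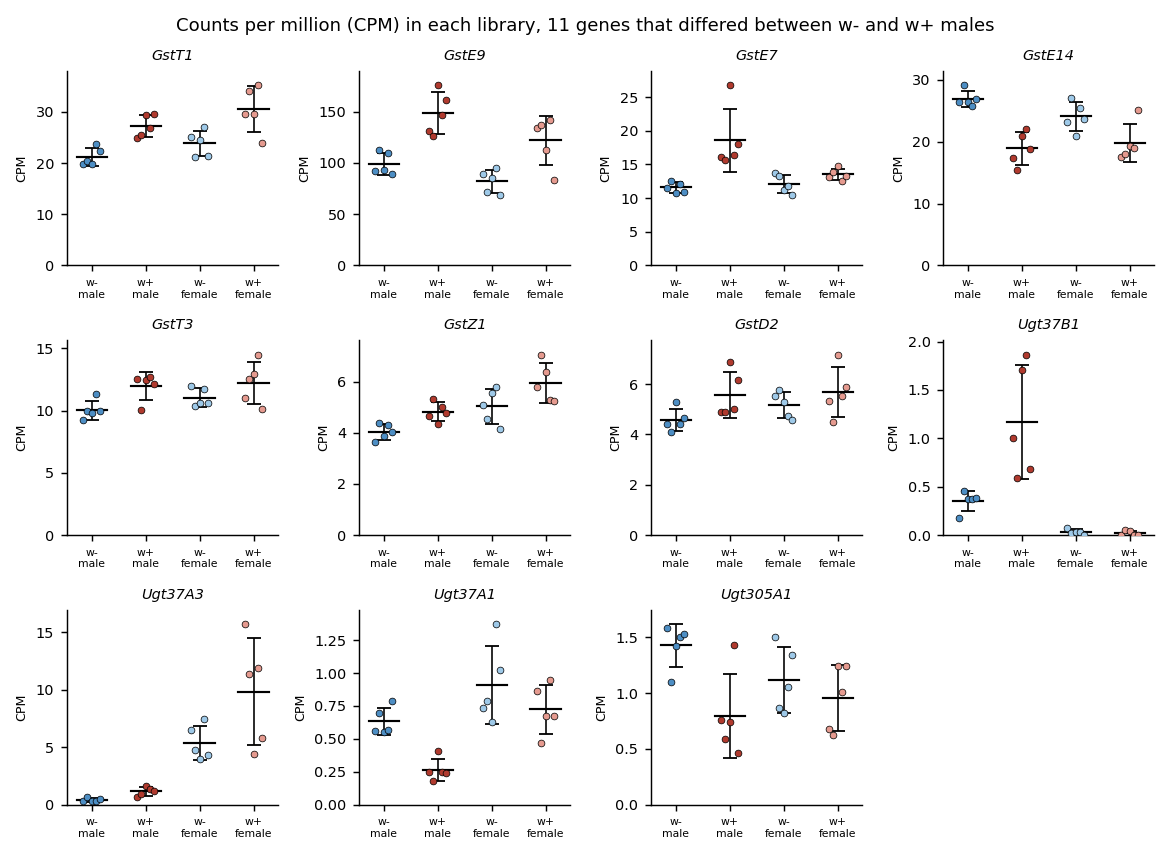
CPM of the 11 genes that passed in w- against w+ males, 1 point per library, with the mean and SD of each group of 5 (bars), for both sexes. GstT1, GstE9, GstE7 and GstE14 separate w- from w+ males, and GstE7 has 1 high w+ male library at 26.8 CPM.

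The 4 Ugt genes that passed in males were all low in heads. Ugt37B1 had 7, 17, 15, 15 and 16 counts in w- males, or 0.179 to 0.456 CPM, against 53, 26, 71, 82 and 31 counts in w+ males, or 0.586 to 1.87 CPM. Ugt37A3 had 0.270 to 0.617 CPM in w- males and 0.700 to 1.60 CPM in w+ males. Neither gene overlapped between the groups, and the log2 fold changes were -1.64 for Ugt37B1 (SE 0.34, adjusted p = 0.0183) and -1.52 for Ugt37A3 (SE 0.29, adjusted p = 0.013). Without replicate 3 both lost the call, with adjusted p of 0.0798 for Ugt37B1 and 0.055 for Ugt37A3.

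Ugt37A1 and Ugt305A1 were higher in w- males. Ugt37A1 had 0.549 to 0.786 CPM in w- males and 0.180 to 0.407 CPM in w+ males, without overlap (log2 fold change 1.26, SE 0.28, adjusted p = 0.0232). Ugt305A1 had 1.10 to 1.58 CPM in w- males and 0.463 to 1.43 CPM in w+ males, where replicate 4 alone lay above 0.757 CPM (log2 fold change 0.91, SE 0.23, adjusted p = 0.0357). Ugt37A1 lost the call without replicate 2 or 5 (adjusted p up to 0.1) and Ugt305A1 without replicate 1, 2, 3 or 5 (up to 0.119). Both lost it with DESeq2, and Ugt305A1 also with no replicate block. Of the 5 highest Ugt genes per length none passed in males. Ugt35B1 averaged 192 ± 18.8 CPM in w- males and 180 ± 17.7 CPM in w+ males, and Ugt302C1 103 ± 6.17 CPM in w- males and 99.7 ± 6.86 CPM in w+ males (SD, n = 5 each). Ugt36E1 had 48.5 to 56.2 CPM in w- males and 46.3 to 48.4 CPM in w+ males, without overlap, and passed with library size alone only (log2 fold change 0.12, adjusted p = 0.128).

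In female heads only GstE9 and GstT1 passed, both lower in w- flies as they were in males. This was 2 of 58 genes tested, 0 higher and 2 lower, where 9.23% of all 10762 genes passed (4.72% higher and 4.51% lower). With library size alone the count was 5 higher and 3 lower, while the median of all genes moved by 0.14. GstE9 had 89.7, 71.7, 85.3, 95.1 and 68.3 CPM in w- females and 134, 137, 112, 142 and 83.9 CPM in w+ females. The groups overlapped through w+ female replicate 5, and the log2 fold change was -0.56 (SE 0.09, adjusted p = 0.0267). GstT1 had 25.0, 21.2, 24.6, 27.0 and 21.4 CPM in w- females and 29.7, 34.1, 29.6, 35.2 and 24.0 CPM in w+ females. Here too w+ female replicate 5 was the lowest of its group, and the log2 fold change was -0.35 (SE 0.08, adjusted p = 0.0414).

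Neither call in females was firm, since both were lost with no replicate block, and that of GstT1 also with library size alone. GstE9 lost it without replicate 1 or 4 (adjusted p up to 0.106 over all settings), and GstT1 without replicate 1, 2, 3 or 4 (up to 0.141). At an unadjusted p under 0.05 there were 14 of the 58, where all genes gave 32.1%. None of the 58 genes separated w- from w+ females completely, against 6.73% of all genes (3.84% higher and 2.89% lower), and the median log2 fold change was 0.07, beside 0.00 over all genes. GstE14 had 20.9 to 27.1 CPM in w- females and 17.5 to 25.2 CPM in w+ females, with a log2 fold change of 0.29 (SE 0.10) that missed the threshold (adjusted p = 0.11). Ugt37A3 averaged 5.39 ± 1.49 CPM in w- females and 9.84 ± 4.66 CPM in w+ females (SD, n = 5 each), with a log2 fold change of -0.77 (SE 0.19, adjusted p = 0.0547). Ugt37B1 was not tested, with 0 to 3 counts in each of the 10 female libraries.

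**Figure D3:**
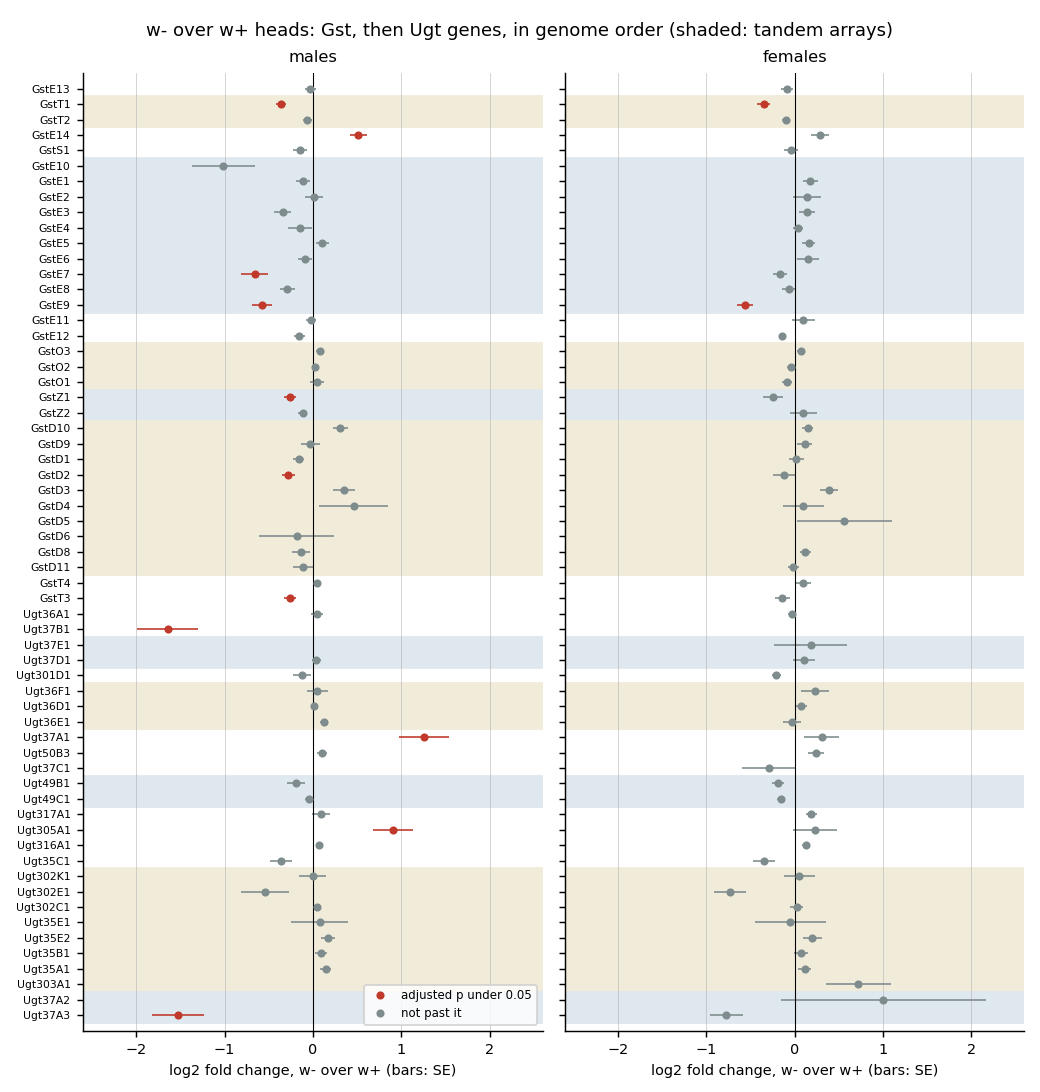
Log2 fold change of w- over w+ heads with its standard error for each Gst gene and then each Ugt gene that passed the filter, in genome order, in males (left) and females (right). Shading marks tandem arrays in alternating colors and red marks an adjusted p under 0.05, reached by 11 genes in males and by GstT1 and GstE9 in females.

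Fat body is a tissue of the head that is rich in detoxifying enzymes, and its markers were also lower in w- flies. The 6 fat body markers (Lsp2, apolpp, Apoltp, AkhR, FASN1 and fat-spondin) summed to 4308 to 6517 CPM in w- males and 6778 to 10740 CPM in w+ males, without overlap. Of these 6, 4 passed as lower in w- males and 1 passed as lower in females. The median log2 fold changes of the 6 were -0.62 (males) and -0.57 (females). Muscle markers were not called in males, and 3 of 5 were higher in w- females (median 0.40). In females the fat body sum was 7880 to 15070 CPM in w- flies and 11480 to 23760 CPM in w+ flies. The w+ female library with the lowest sum was replicate 5, which also had the lowest GstE9 and GstT1, and in w- females replicates 2 and 5 were the lowest for the fat body sum, for GstE9 and for GstT1. In males the library with the lowest sum was also the lowest for GstE9 in w- flies only, and for GstT1 in w+ flies only. Fat body sums averaged higher in females than males (19310 against 8572 CPM in w+, 11580 against 5074 CPM in w- flies). GstE9 averaged lower in females (122 against 148 CPM in w+, 82.0 against 99.4 CPM in w- flies). GstT1 averaged higher in females (30.5 against 27.2 CPM in w+, 23.8 against 21.2 CPM in w- flies). Neither gene passed for sex in the main fits. In w- flies GstE9 passed with the replicate block, with DESeq2 and with library size alone. In w+ flies GstE9 passed with library size alone, and GstT1 passed without replicate 5. Less fat body per head and less message per fat body cell cannot be told apart in whole heads, and the part of fat body in the lower GstE9 and GstT1 was not tested.

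The eye color contrast was tested directly for a difference between the sexes, as the female minus the male w- over w+ effect. The w+ females were heterozygous for white, which this test cannot tell apart from sex. None of 62 genes tested passed, where 0.0263% of all 11423 genes did (edgeR), and DESeq2 called none either. At an unadjusted p under 0.05 there were 4 of the 62, against 6.03% of all genes. The smallest p belonged to GstE3, which had 52.8 to 62.8 CPM in w- females and 45.3 to 57.6 CPM in w+ females, while it had 41.5 to 45.3 CPM in w- males and 45.6 to 72.3 CPM in w+ males. Its effect was higher in females by 0.48 on the log2 scale (SE 0.14, adjusted p = 0.634). Ugt37A1, which passed in males alone, had a difference of -0.95 (SE 0.33, adjusted p = 0.745), so a difference between the sexes was not shown for it. The sign of the w- over w+ change was the same in both sexes for 38 of 53 genes tested in both, or 71.7%, beside 76.1% of all genes.

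Beside the omega-class GSTs lies sepia (se), which was higher in w- flies of both sexes. The se gene encodes a GST-related enzyme, PDA synthase, that makes a precursor of the red drosopterin eye pigments. It lies on 3L at 8520552 to 8521489, between GstO3 (8518885 to 8520295) and GstO2 (8521429 to 8523501), whose end it overlaps on the opposite strand. Its level was 61.5, 57.4, 61.7, 52.6 and 57.5 CPM in w- males and 23.4, 19.1, 19.8, 18.1 and 17.0 CPM in w+ males. In females it was 60.8, 61.4, 50.5, 50.7 and 48.6 CPM in w- flies and 21.4, 21.6, 25.3, 21.0 and 25.8 CPM in w+ flies. The groups were far apart in both sexes, with log2 fold changes of 1.58 in males (SE 0.06, adjusted p = 5.59e-06) and 1.24 in females (SE 0.10, adjusted p = 0.0036), and se passed in all 12 other settings in each sex.

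The 3 GstO genes beside se did not pass in either sex. GstO3 averaged 59.1 ± 2.18 CPM in w- males and 56.0 ± 2.73 CPM in w+ males, GstO2 77.3 ± 2.54 CPM in w- males and 75.7 ± 2.61 CPM in w+ males, and GstO1 10.8 ± 1.01 CPM in w- males and 10.4 ± 0.704 CPM in w+ males (SD, n = 5 each). In males their log2 fold changes lay between 0.02 and 0.07, and in females they ran over -0.09 to 0.07, with standard errors of at most 0.08.

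Among partner genes of the 2 enzyme families, Gclm, Mgstl and St1 were lower in w- heads of both sexes, and UGP and Pgm1 in w- males. From 31 partner genes (glutathione synthesis, UDP-sugar supply, export pumps, regulators, sulfotransferases and GST relatives), 26 were tested, with 1 higher and 5 lower in males and 1 higher and 3 lower in females. All genes gave 4.64% higher and 8.06% lower in males and 4.72% higher and 4.51% lower in females. The 1 gene that rose was se. Gclm, the modifier subunit of glutamate-cysteine ligase, the enzyme that limits glutathione synthesis, averaged 61.7 ± 6.62 CPM in w- males and 82.5 ± 9.58 CPM in w+ males, and 78.1 ± 13.2 CPM in w- females and 127 ± 19.6 CPM in w+ females (SD, n = 5 each). It did not overlap in either sex (log2 fold changes -0.42 in males and -0.70 in females, adjusted p = 0.0334 and 0.0412).

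Mgstl, a microsomal GST, averaged 116 ± 6.11 CPM in w- males and 140 ± 9.26 CPM in w+ males, and 130 ± 11.7 CPM in w- females and 168 ± 14.9 CPM in w+ females (SD, n = 5 each), with log2 fold changes of -0.27 and -0.37 (adjusted p = 0.0179 in males and 0.0215 in females). UGP, which makes UDP-glucose, and Pgm1, which makes the glucose-1-phosphate it uses, passed in males alone, with log2 fold changes of -0.60 and -0.45 in males (adjusted p = 0.0383 for UGP and 0.00449 for Pgm1) and -0.58 and -0.46 in females (adjusted p = 0.0879 for UGP and 0.0991 for Pgm1). In females Gclm, Mgstl, UGP and Pgm1 were lowest where fat body sums were lowest, in w+ replicate 5 and w- replicates 2 and 5. Males did not show this throughout. In w+ males these genes were all lowest in replicate 2 (fat body sum 8368 CPM), while the sum was lowest in replicate 1 (6778 CPM). In w- males the sum was lowest in replicate 5 (4308 CPM), as was Mgstl. Gclm, UGP and Pgm1 were lowest in w- male replicate 1 (4371 CPM). The part of fat body in the values of these genes was not tested. St1, a sulfotransferase, fell by 0.31 on the log2 scale in males and by 0.32 in females. Its lowest female values were in w+ replicate 5 and in w- replicates 2 and 3. The calls for Pgm1 in males and for se were kept in all 12 other settings. Gclm passed in 7 of 12 and Mgstl in 10 of 12 in each sex. UGP passed in 6 of 12 in males, and St1 in 11 of 12 in males and 7 of 12 in females.

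**Figure D4:**
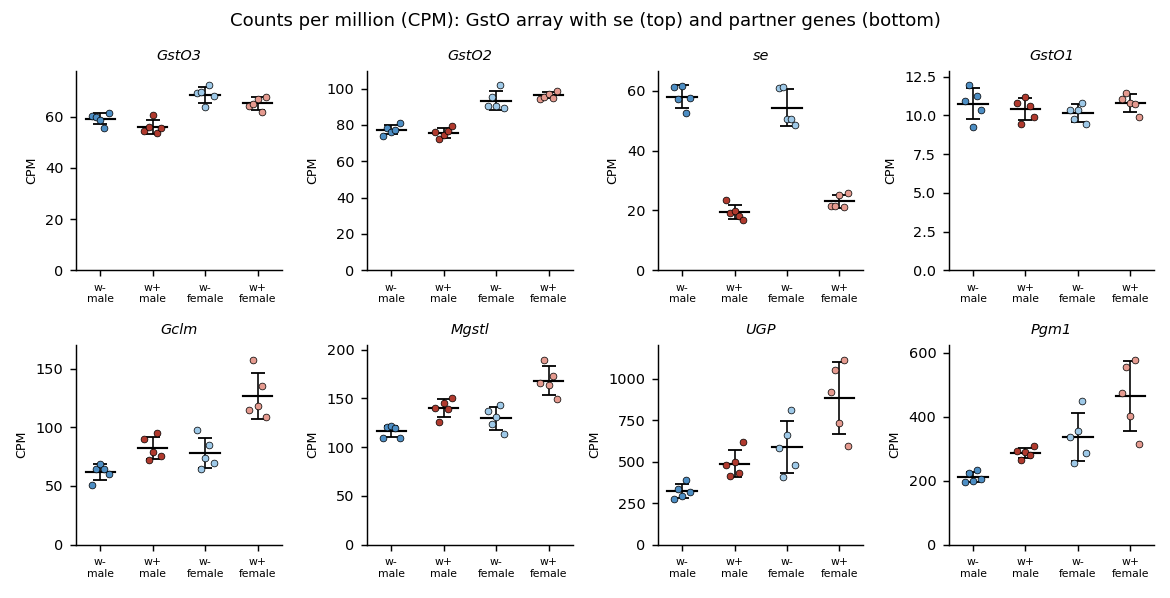
CPM in each library (points, with mean and SD of 5) of the 3 GstO genes and their array neighbour se (top), and of 4 partner genes of conjugation (bottom). In both sexes se is far higher in w- flies, while GstO1, GstO2 and GstO3 overlap between w- and w+.

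Most Gst and Ugt genes that differed by sex were higher in females. The share that differed was near that of all genes for both families together. For Gst genes alone it was near that share in w+ flies and lower in w- flies. For Ugt genes it was higher in both eye colors, though many of these genes are neighbours in arrays and not independent. In w+ flies 16 genes were higher and 4 were lower in females than in males out of 58 tested, where 28.8% of all genes passed (16.9% higher and 11.9% lower). In w- flies 23 were higher and 1 was lower out of 58 tested, where 40.7% of all genes passed (21.4% higher and 19.2% lower). By family, 8 of 33 Gst genes (24.2%) and 12 of 25 Ugt genes (48%) passed in w+ flies. In w- flies these were 9 of 32 Gst genes (28.1%) and 15 of 26 Ugt genes (57.7%). The median log2 fold change of the members was 0.10 in w+ flies and 0.17 in w- flies, beside 0.01 and -0.01 over all genes. Both eye colors shared 15 genes called higher and 1 called lower in females. Females and males did not overlap for 14 of 58 genes in w+ flies (11 higher and 3 lower), against 19.2% of all genes (9.99% higher and 9.2% lower). In w- flies they did not overlap for 15 of 58 (14 higher and 1 lower), against 28.9% of all genes (15.3% higher and 13.6% lower). The unadjusted p was under 0.05 for 25 of 58 genes in w+ flies and 31 of 58 in w- flies, where all genes gave 41.1% and 48.8%.

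The split by direction, and which genes of each family passed, depended on how the libraries were scaled. With library size alone, which takes no account of the yolk protein message that fills part of each female library, the count was 7 higher and 17 lower in w+ flies and 12 higher and 11 lower in w- flies, while the median of all genes moved by -0.27 and -0.17. Of the genes with the smallest p for sex, GstO2 and GstD1 in w+ flies lost their call under that scaling and the others kept theirs. Ugt302C1 in w+ flies and Ugt36E1 in w- flies also lost it.

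The widest sex differences lay in the Ugt37 genes, in opposite directions. Ugt37A3 had 3.98 to 7.43 CPM in w- females and 0.270 to 0.617 CPM in w- males, and 4.42 to 15.7 CPM in w+ females and 0.700 to 1.60 CPM in w+ males. It was 13.5-fold higher in females among w- flies (log2 fold change 3.75, SE 0.26, adjusted p = 3e-06) and 8.66-fold higher among w+ flies (3.11, SE 0.39, adjusted p = 0.00053). Ugt37B1 ran the other way, with 6 counts over the 5 w- female libraries against 70 counts over the 5 w- males, and 4 counts over the 5 w+ females against 263 counts over the 5 w+ males. Scaled for depth, its male level was 10.8 times the female level in w- flies (95% exact interval 4.74 to 30.6) and 54.1 times in w+ flies (20.9 to 200), where the interval covers counting error only. Ugt37A2, next to Ugt37A3, reached 33 and 34 counts in w- female replicates 1 and 3 and at most 15 counts in any other library. The gut markers summed to 0.457 CPM in w- female replicate 1 and to 42.5 CPM in replicate 3. The part of gut genes in these counts was not tested.

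Of the 5 highest Ugt genes per length, Ugt302C1, Ugt49C1 and Ugt36E1 were higher in females in both eye colors, while Ugt35B1 and Ugt301D1 did not pass in either. Ugt49B1 and Ugt49C1, neighbours on 2R, both passed in both eye colors. Ugt49B1 averaged 57.1 ± 7.78 CPM in w- females and 30.9 ± 2.06 CPM in w- males, and 65.8 ± 13.0 CPM in w+ females and 35.4 ± 4.77 CPM in w+ males. Ugt49C1 had 73.2 to 86.6 CPM in w- females and 59.3 to 61.6 CPM in w- males, and 80.1 to 101 CPM in w+ females and 56.8 to 65.6 CPM in w+ males. Females lay above males throughout for both genes, with log2 fold changes of 0.89 for Ugt49B1 and 0.42 for Ugt49C1 in w- flies and 0.90 for Ugt49B1 and 0.55 for Ugt49C1 in w+ flies (adjusted p at most 0.00145, edgeR).

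Ugt302E1, a low gene at 2.25 TPM, averaged 2.04 ± 0.667 CPM in w- females and 0.867 ± 0.256 CPM in w- males, and 3.32 ± 0.724 CPM in w+ females and 1.27 ± 0.405 CPM in w+ males (SD, n = 5 each). Its log2 fold changes were 1.24 in w- flies and 1.39 in w+ flies. Ugt302C1, from the same array, was higher by 0.34 in w- and 0.38 in w+ flies, whereas Ugt35B1, also in that array and the highest Ugt gene, had log2 fold changes of 0.01 in w- flies and 0.04 in w+ flies and did not pass. Ugt36E1 was higher in females by 0.31 in w- flies and 0.49 in w+ flies.

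Among GSTs the sex differences were smaller. GstO2 had 89.1 to 102 CPM in w- females and 74.1 to 80.8 CPM in w- males, and 94.5 to 98.5 CPM in w+ females and 72.2 to 79.2 CPM in w+ males (log2 fold changes 0.27 and 0.35, adjusted p = 0.00029 in w- flies and 9e-05 in w+ flies). GstD1 averaged 288 ± 23.2 CPM in w- females and 207 ± 14.8 CPM in w- males, and 285 ± 30.1 CPM in w+ females and 231 ± 24.7 CPM in w+ males (SD, n = 5 each). Its log2 fold changes were 0.48 in w- flies (adjusted p = 0.00013) and 0.31 in w+ flies (adjusted p = 0.0174), and the call in w+ flies was lost without replicate 1, 2 or 5 (adjusted p up to 0.0758). GstE3 passed in w- flies only, at 0.40 (adjusted p = 8e-05), beside -0.08 in w+ flies (adjusted p = 0.643). GstD9, GstE2 and GstE7 were lower in females among w+ flies, of which GstD9 averaged 41.2 ± 2.63 CPM in w+ females and 53.4 ± 5.71 CPM in w+ males (log2 fold change -0.37). The call of GstE7 was lost without replicate 1, 2, 4 or 5.

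**Figure D5:**
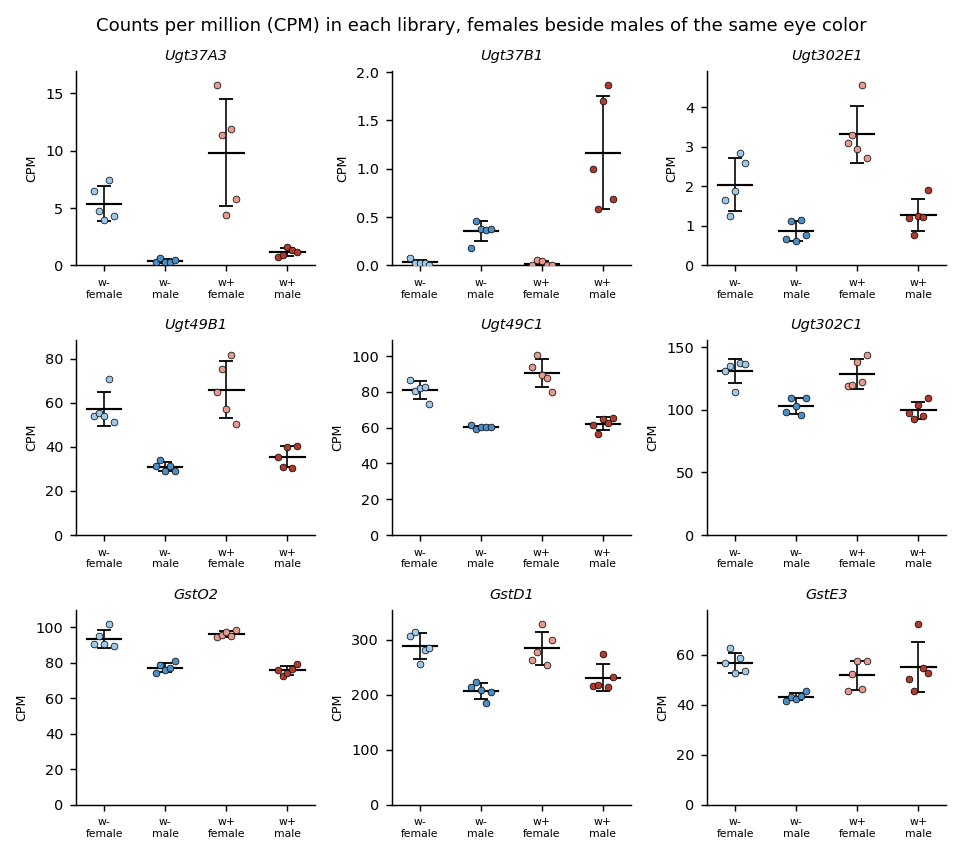
CPM in each library (points, with mean and SD of 5) for 9 genes with the smallest p for sex or high levels, females beside males of the same eye color. Ugt37A3 is higher and Ugt37B1 lower in females of both eye colors, and Ugt49B1, Ugt49C1 and GstO2 are higher in all female than in all male libraries of their eye color.

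Tissue markers differed between the sexes as well. Of 6 fat body markers 5 were higher in females in each eye color, with median log2 fold changes of 1.00 in w- flies and 0.96 in w+ flies, and 4 hemocyte markers had medians of 1.59 in w- flies and 1.16 in w+ flies. Of 5 muscle markers 4 were higher in females among w- flies (median 0.60) and 5 among w+ flies (median 0.41). All 6 photoreceptor markers were lower in w- females than in w- males (median -0.24) and none passed in w+ flies. Of 5 antenna markers 1 was lower in females among w- flies (median -0.10) and 3 among w+ flies (median -0.18). Of 4 neuron markers 3 were lower in females among w- flies (median -0.18) and 1 among w+ flies (median -0.18). The part of these tissues in the sex differences of Gst and Ugt genes was not tested.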

How the data were processed

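Per the labels and the study's methods, libraries were made from poly(A) RNA of pooled heads with the Kapa mRNA HyperPrep kit. The authors trimmed reads with Trim Galore (0.6.1), aligned them to release 6 of the genome with STAR and took its reverse-strand gene counts, which hold uniquely aligned reads. The deposited count table holds raw counts for 17609 genes in 20 samples and was used for all tests. The 2 deposited normalized tables (1 per sex) hold signal, namely the authors' counts divided by a size factor of each sample, and served only to pair gene IDs with symbols. They named 61 of the 70 genes, and a reference name table named the other 9. Promoter and protein sequences were not used here.

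Genes reaching 10 counts in 3 or more samples of a comparison were tested with the quasi-likelihood test of edgeR (4.0.16, R 4.3.3) with TMM scaling. Eye color within a sex was fitted with the replicate number as a block, as in the study's design, on the 10 libraries of that sex; sex within an eye color was fitted without a block on 10 libraries, and the difference of the eye color effects on all 20. P-values were adjusted by Benjamini-Hochberg over all genes tested, with a threshold of 0.05. CPM were scaled by TMM over 20 samples; TPM used exon length and served to rank genes. The tests were run on simulated counts first. Alternatives were DESeq2 (1.42.0), its size factors, library size alone, 2 other filters, 1 fit of all samples, the block left out or added, and each replicate number left out.

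Genes described singly were those called in w- against w+ flies, the 5 highest of each family, the 5 with the smallest p for sex in each eye color, the smallest p of the difference between sexes, white, and called genes of the partner lists. GstO1, GstO3, GstD3, GstD9, GstE2, GstT2 and Ugt37A2 were added after their values were seen. The members and lists were chosen with earlier results of these data known. Intervals cover counting error only.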

Additional observations from a re-analysis of the deposited data

Results flagged for a closer look

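In 6 cases 1 library lay far from the other 4 of its group by Dixon's test, among 120 groups of 5 looked at for 30 genes, where chance gives about 1 in 20. GstE14 was 25.2 CPM in w+ female replicate 5 (others 17.5 to 19.3 CPM). GstE7 was 26.8 CPM in w+ male replicate 3 (others 15.6 to 18.1 CPM), and GstT3 was 10.0 CPM in w+ male replicate 2 (others 12.1 to 12.7 CPM). In w- females, Ugt302C1 was 114 CPM in replicate 3 (others 131 to 138 CPM), while replicate 4 had 67.9 CPM of Ugt301D1 (others 49.3 to 54.4 CPM) and 70.7 CPM of Ugt49B1 (others 51.3 to 55.3 CPM). The w- female replicate 4 also had the highest fat body marker sum of its group, at 15070 CPM; the part of fat body in these values was not tested.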

How the results depend on the processing

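The count of genes called in w- against w+ males was 11, and 7 with DESeq2 (1 higher, 6 lower, 6 of them shared with the 11). Without 1 replicate number it ranged from 3 (without replicate 5) to 9, with 5 without replicate 3. In females the count was 2, and 7 with DESeq2, 8 with library size alone (5 higher, 3 lower, where the median of all genes moved by 0.14), 4 with at least 10 counts in every sample and 5 with all 20 samples in 1 fit. Without 1 replicate number it ranged from 0 (without replicate 1 or 4) to 5. The replicate numbers were not shown to pair the samples. Deviations of same-numbered libraries had a mean correlation of 0.22 in males (-0.28 to 0.56), against -0.05 for other numbers, and of -0.07 in females (-0.36 to 0.35), against 0.04 for other numbers. With no replicate block, males gave 10 calls, 9 of them shared, and females 1 call, GstD3, which was not among the 2. With the replicate block, sex gave 22 calls in w+ and 29 in w- flies, against 20 and 24. The counts for sex stayed within 1.5 times under every setting, and the difference between the sexes gave 0 calls in each. With library size alone the log2 fold changes of GstD2 and GstT3 in females turned to 0.017 and 0.0024, where neither passed. All genes called in males were 1421, and 714 to 1526 without 1 replicate number. In females they were 993, and 82 to 1121 without 1 replicate number (82 without replicate 4), 1704 with DESeq2 and 2215 with library size alone. For sex in w+ flies they were 3150, and 1800 to 3426 without 1 replicate number. The causes were not tested.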
